A study of Homo sapiens with 5 samples.

Results

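The genes described here are 10 members of the retinoid pathway, measured as messenger RNA on 5 Affymetrix arrays of PC-3 cells, a human line grown from a bone metastasis of prostate cancer and able to grow without androgen. The members are the short-chain dehydrogenases DHRS9, DHRS3, RDH10, RDH11 and RDH13, the carrier CRABP2, the receptors RARA, RARB and RARG, and the clearing enzyme CYP26B1. They were chosen because DHRS9 had the highest spheroid value relative to 2D of all genes, so differences between spheroid and 2D are given as a description with no test. The 10 genes are 10 of 19775 genes on the array, and all 32 probe sets that carry only their symbol were read, of 54675 in all. A probe set is a group of short probes against 1 transcript, and its level is the log2 of the RMA intensity.

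The study compared PC-3 cells grown flat (2D) with PC-3 cells grown as spheroids, which are cell clusters in 3 dimensions, and PC-3 lines with short hairpin RNAs (shRNA) against TRIB1 with a line that carries an shRNA against GFP. There was 1 array of 2D cells, 1 of spheroid cells, 1 of the shGFP line and 2 of TRIB1 hairpin lines (shTRIB1-1 and shTRIB1-2), which carry different hairpins. No drug or other treatment was given to any sample, per the labels. Retinoid supply in the medium, the way the spheroids were grown and whether the hairpin lines are single clones or pools are details not given in the sources used here. With 1 array each of 2D, spheroid and shGFP, a difference among these 3 cannot be set against replicates. The labels do not state separate cultures, and the 2 TRIB1 hairpin arrays carry different hairpins. Their spread may thus hold technical, culture, line and hairpin differences, which cannot be told apart. In RNA from whole cultures, fewer cells that express a gene and less RNA per cell cannot be told apart.

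Vitamin A enters cells as retinol and is oxidised in 2 steps, first to retinal by retinol dehydrogenases and then to retinoic acid by retinal dehydrogenases. Other enzymes of the same short-chain family run the first step backwards and return retinal to retinol. Retinoic acid is carried to the nucleus by CRABP2, binds the receptors RARA, RARB and RARG in complex with RXR, and is cleared by enzymes of the CYP26 family. RARB, CYP26A1 and DHRS3 are textbook genes that retinoic acid induces, and retinoids are known to hold epithelial cells, prostate cells included, in a differentiated state.

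The arrays were first checked against their labels. The epithelial genes KRT8, KRT18, EPCAM and CDH1 lay at levels of 9.39 to 13.19 on every array. The prostate antigen KLK3 had the same level of 6.90 on all 5 arrays, so a flat level between 6 and 7 can be a probe set's own background. The markers of other cell types PTPRC, CD3E, COL1A2 and DCN lay at or below 5.78 and HBB at 6.15 to 6.25, whereas the endothelial marker PECAM1 was at 7.57 in 2D and 9.53 in spheroid. The TRIB1 probe set was at 11.97 with shGFP, 11.91 with shTRIB1-1, 11.76 with shTRIB1-2, 11.04 in 2D and 11.23 in spheroid. A depletion of TRIB1 was thus not shown, both hairpin arrays lay above the cells with no hairpin, and these arrays are named by their labels. Actin gave a ratio of 5′ to 3′ signal of 0.436 to 0.445 on the 3 hairpin arrays, 0.184 in 2D and 0.131 in spheroid. The spiked control RNAs split the arrays the same way. The thr spike gave 0.271 to 0.315, 0.157 and 0.152 in the same order, and the dap spike 0.160 to 0.181, 0.1112 and 0.1105. GAPDH gave 0.929 to 0.944 on the 3 hairpin arrays, 0.895 in 2D and 0.763 in spheroid. Every difference between a hairpin array and 2D or spheroid crosses the split of actin and the spikes. Spheroid and 2D differ in these ratios too, since spheroid lay below 2D for actin and for GAPDH. The part of these ratios in the differences below was not tested.

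**Figure D1:**
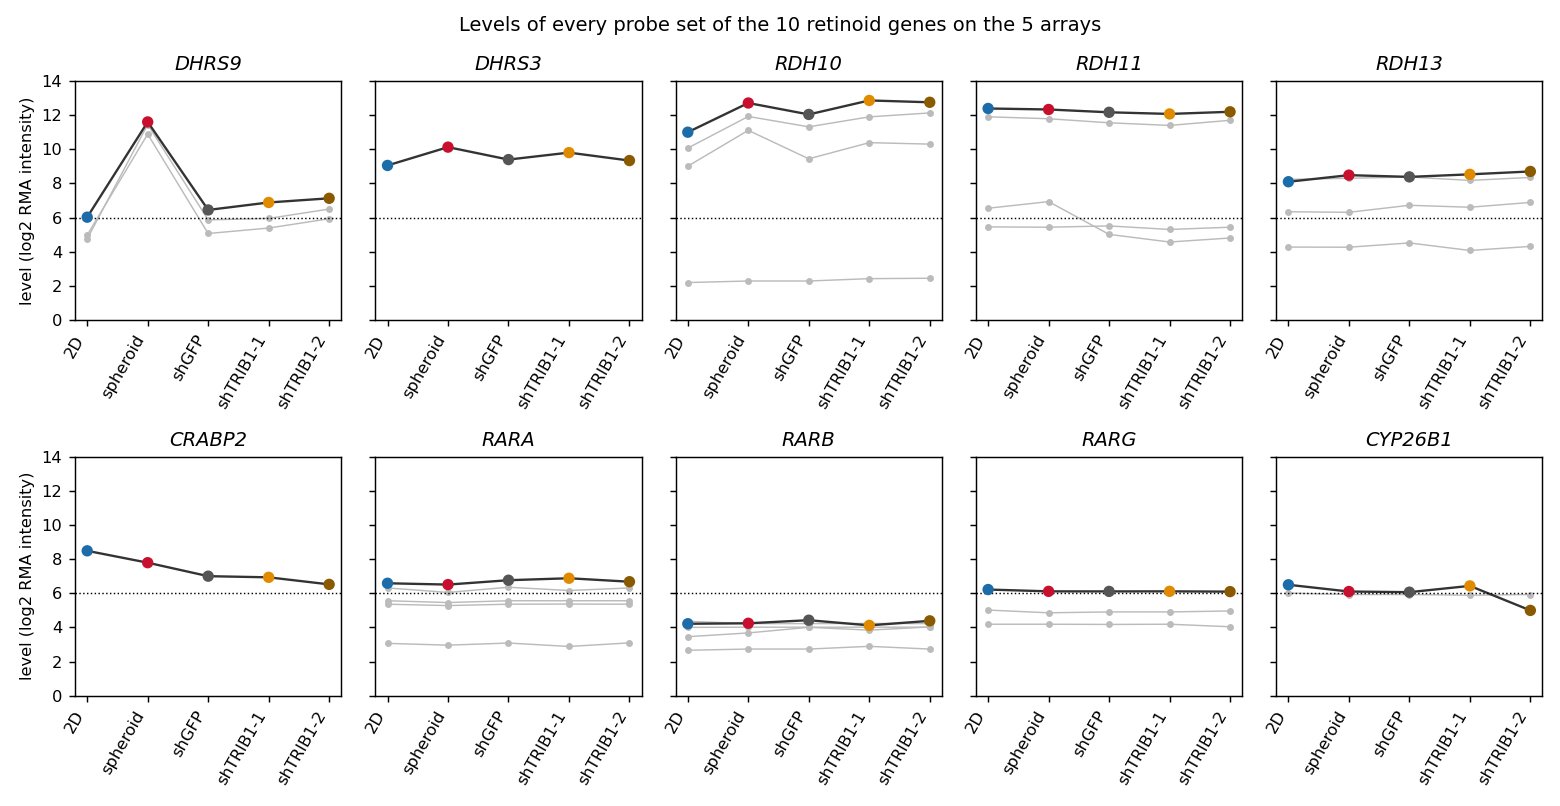
Level (log2 RMA intensity, vertical axis) of all 32 probe sets of the 10 genes on the 5 arrays, 1 point per array. The black line with coloured points is the probe set with the highest mean level, grey lines are the other probe sets, and the dotted line is the level of 6 used as a filter. DHRS9 is at 11.60 on the spheroid array and at 7.13 or below on the others, RDH10 is lowest in 2D at 11.00, and RARB lies below 6 throughout.

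DHRS9, an enzyme that oxidises retinol to retinal and also acts on hydroxysteroids, was high on the spheroid array alone. Its leading probe set had an intensity of 65.1 in 2D, 87.3 with shGFP, 118 with shTRIB1-1, 140.1 with shTRIB1-2 and 3112 in spheroid. These are levels of 6.02, 6.45, 6.89, 7.13 and 11.60. The spheroid array therefore stood 4.47 above the next highest array, whereas the other 4 arrays spanned 6.02 to 7.13. The gap to 2D was 5.58, but the 2D level of 6.02 was not shown to be above background, so this gap is no measured fold. Of 10843 genes that reached a level of 6 on any array, 1.6% were at least 1 above every other array in spheroid, and DHRS9 ranked 1 among them by that gap. This rank rests on the spheroid value by which DHRS9 was chosen and is no further result.

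All 3 DHRS9 probe sets showed this pattern. The second lay at 4.75 in 2D, 5.87 with shGFP, 5.95 and 6.50 with the TRIB1 hairpins and 11.45 in spheroid. The last lay at 4.98, 5.07, 5.39, 5.93 and 10.89 in the same order. Their differences between spheroid and 2D were 6.70 and 5.91. Among 18423 probe sets at a level of at least 6 in spheroid or 2D, the 3 ranked 1, 3 and 4. DHRS9 was chosen for this difference, so these ranks restate the choice and are no further result. All 3 carry the suffix _s_at or _x_at, which marks probes that can also match other transcripts, and no other probe set of DHRS9 can check them. The 2D level of the other 2 was below 6, so their differences too depend on a signal near background.

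The annotation places more than 1 transcription start at DHRS9, and the RefSeq promoter table of GRCh38.p14 lists 4. The last 150 bases before starts 1 and 2 are printed here because both hold TATAAA and start 2 also holds TGAGTCA. Start 3, not printed, also had TATAAA, 137 bases before it. A stretch of the same length from DHRS3, another member with a higher spheroid level, is printed beside them. Capitals mark TATAAA, the TATA box motif, and TGAGTCA, the motif of AP-1 factors, on either strand. The stretches are at chr2:169066927-169067076 (plus strand), chr2:169069413-169069562 (plus strand) and chr1:12596614-12596763 (minus strand), and each is written 5′ to 3′ on its gene's strand.
DHRS9, start 1: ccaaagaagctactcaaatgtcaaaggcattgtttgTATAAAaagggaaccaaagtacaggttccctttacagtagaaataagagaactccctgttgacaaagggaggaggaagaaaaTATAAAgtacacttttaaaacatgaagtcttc
DHRS9, start 2: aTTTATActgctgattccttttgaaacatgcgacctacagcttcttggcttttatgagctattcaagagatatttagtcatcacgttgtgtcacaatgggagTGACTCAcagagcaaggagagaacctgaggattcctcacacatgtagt
DHRS3, start 1: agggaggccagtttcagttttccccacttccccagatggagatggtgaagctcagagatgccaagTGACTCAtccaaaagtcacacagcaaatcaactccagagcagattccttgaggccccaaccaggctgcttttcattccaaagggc

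TATAAA stood 32 bases before the first DHRS9 start, and TGAGTCA stood 48 bases before the second on the opposite strand. In DHRS3 the TGAGTCA match began 85 bases before start 1, also on the opposite strand. DHRS3 starts 2 and 3 in the table lie upstream of start 1 and held no TGAGTCA. Of 35116 promoters in the table, searched on both strands from 250 bases before to 50 bases after the start, 11.5% held TATAAA and 4.95% held TGAGTCA. Among 20 promoters of 9 members in the table, which has none of RDH10, 4 held TATAAA (3 of DHRS9 and 1 of CYP26B1) and 2 held TGAGTCA. The DHRS9 promoters were poor in G and C, at 31.3% to 39.3%, against a median of 58.7% over all promoters. A match describes letters in a window and does not show that a factor binds there.

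RDH10, the main enzyme that oxidises retinol to retinal in the embryo, was lowest in 2D and higher on the other 4 arrays. Its leading probe set lay at 11.00 in 2D, 12.04 with shGFP, 12.71 in spheroid, 12.75 with shTRIB1-2 and 12.86 with shTRIB1-1. The 2D and shGFP arrays were thus 1.04 apart, and shGFP and spheroid a further 0.67. Spheroid and shTRIB1-2 were 0.04 apart, and the 2 TRIB1 hairpin arrays 0.11. The difference between spheroid and 2D was 1.71 (3.27-fold), and 1.85 and 2.10 on the next 2 probe sets. The last RDH10 probe set, a weak one, was between 2.20 and 2.45 on every array and carries little information. With the shGFP array in place of 2D as the reference, the spheroid difference of RDH10 was 0.67, and 0.61 and 1.67 on the next 2 probe sets. On the probe set with 1.67, spheroid was the highest array, 0.72 above the next.

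DHRS3, which reduces retinal to retinol and is known to form a complex with RDH10, had 1 probe set. It lay at 9.06 in 2D, 9.34 with shTRIB1-2, 9.40 with shGFP, 9.81 with shTRIB1-1 and 10.13 in spheroid. Spheroid was highest and 2D lowest, 1.07 apart (2.10-fold). The other 3 arrays lay between them, with the 2 hairpin arrays 0.47 apart. Against shGFP the spheroid difference of DHRS3 was 0.73.

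RDH11 and RDH13, which reduce retinal in the endoplasmic reticulum and in mitochondria, lay close together over the culture types. RDH11 was at 12.39 in 2D, 12.33 in spheroid, 12.17 with shGFP and 12.07 and 12.20 with the TRIB1 hairpins, a range of 0.32. Its second probe set behaved alike, with a range of 0.51. A weaker probe set split the arrays another way, with 6.55 in 2D and 6.94 in spheroid against 5.02, 4.57 and 4.80 on the shGFP, shTRIB1-1 and shTRIB1-2 arrays. That split is also the split of the actin 5′ to 3′ ratio. RDH13 was at 8.10 in 2D, 8.49 in spheroid, 8.39 with shGFP and 8.53 and 8.70 with the TRIB1 hairpins. Its spheroid difference of 0.39 was 0.07 and -0.03 on its next 2 probe sets.

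CRABP2, the carrier that hands retinoic acid to its receptors, was highest in 2D and lower on the hairpin arrays. Its 1 probe set lay at 8.49 in 2D, 7.79 in spheroid, 7.003 with shGFP, 6.94 with shTRIB1-1 and 6.52 with shTRIB1-2. The spheroid array was 0.70 below 2D and 0.79 above shGFP, so its direction turned with the reference. The 2 TRIB1 hairpin arrays were 0.41 apart. The difference of -1.49 between shGFP and 2D was the only one of a member past 1 on the lower side there, where 2.11% of 10450 genes were as far below, and that of RDH10 (1.04) the only one on the higher side, where 2.13% were. With the median of its probe sets in place of the leading one, the RDH10 value was 0.84 and no longer past 1.

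The receptors, transcription factors that retinoic acid switches on, spanned little over the 5 arrays. RARA was at 6.59 in 2D, 6.51 in spheroid, 6.77 with shGFP and 6.88 and 6.68 with the TRIB1 hairpins. Its other 4 probe sets ranged over 0.30 or less. RARG was at 6.22 in 2D and between 6.10 and 6.11 on the other arrays, a range of 0.12. The levels of RARA and RARG are near those of KLK3 (6.90) and HBB (6.15), which were nearly the same on every array, so a signal above background was not shown for either receptor. The 5 probe sets of RARB lay between 2.66 and 4.43 on every array, and RARB passed the level filter in no comparison.

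CYP26B1, which breaks down retinoic acid, was near the filter. Its leading probe set lay at 6.50 in 2D, 6.10 in spheroid, 6.07 with shGFP, 6.43 with shTRIB1-1 and 4.998 with shTRIB1-2. The 2 hairpin arrays were 1.44 apart, farther than any neighbours in the order of the 5 arrays. Its second probe set lay between 5.89 and 6.01.

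RARB and CYP26A1 carry textbook retinoic acid response elements, and their stretches are shown because both genes stayed at background. CYP26A1, the main inducible enzyme of retinoic acid clearance, is no member, and its probe set lay between 5.06 and 5.07 on all 5 arrays. Capitals mark the core receptor hexamers on either strand, which are AGGTCA, its relative AGTTCA, the variant GGGTCA and the variant GGTTCA, and TATAAA in CYP26A1. The stretches are the 150 bases before the start at chr3:25428113-25428262 (plus strand) and chr10:93073743-93073892 (plus strand) of GRCh38.p14, from RefSeq.
RARB: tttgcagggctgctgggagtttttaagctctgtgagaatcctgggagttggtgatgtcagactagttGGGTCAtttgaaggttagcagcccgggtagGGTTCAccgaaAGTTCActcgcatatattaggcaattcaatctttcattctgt
CYP26A1: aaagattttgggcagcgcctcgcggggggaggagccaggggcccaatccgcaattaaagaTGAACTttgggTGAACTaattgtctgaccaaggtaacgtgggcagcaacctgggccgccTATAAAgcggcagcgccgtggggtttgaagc

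In both stretches a pair of hexamers pointed the same way with 5 bases between them, the spacing called DR5. In RARB the match was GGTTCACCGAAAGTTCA, starting 53 bases before the start. In CYP26A1 it was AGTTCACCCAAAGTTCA on the opposite strand, in a stretch that opens 90 bases before the start. DR5 stood in 0.0883% of all promoters (31 of 35116), in RARB alone among the members, and spacings of 2 and 1 (0.0399% and 0.131% of promoters) in no member. Single hexamers stood in 9 of the 20 member promoters, against 38.6% of all promoters. No hexamer stood in the DHRS9 stretches shown, though the fourth DHRS9 start had 2 copies of AGTTCA within its window.

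**Figure D2:**
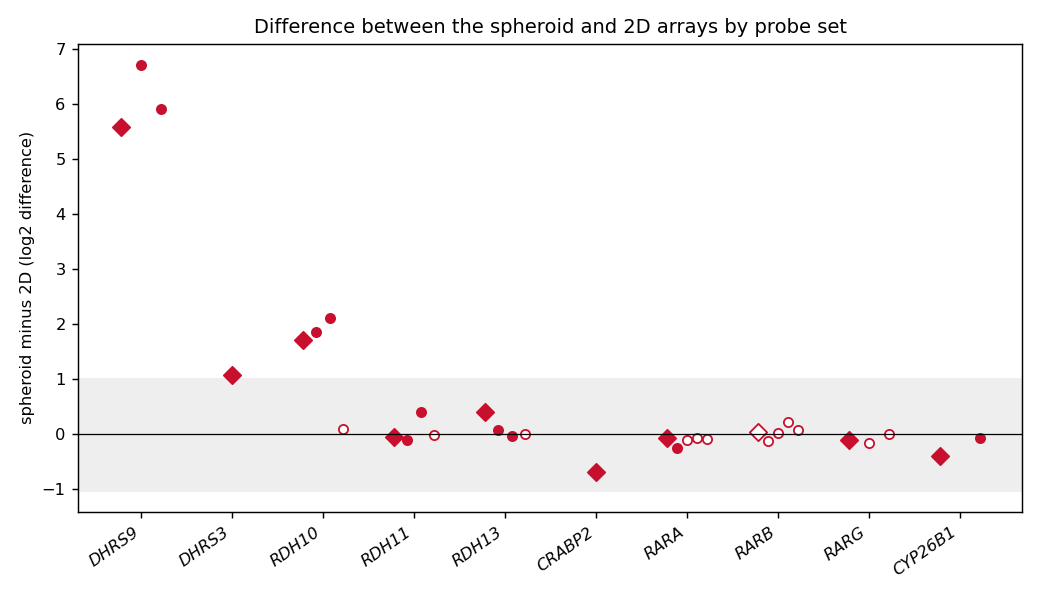
Log2 difference between the spheroid and 2D arrays for each of the 32 probe sets. Diamonds are the leading probe set of a gene, circles the others, open symbols lie below a level of 6 in both cultures, and the grey band runs from the 5th to the 95th percentile of all genes tested (-1.03 to 1.00). The 3 probe sets of DHRS9, 3 of 4 of RDH10 and that of DHRS3 lie above the band.

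Of the 10 members, 9 passed the filter of a level of at least 6 in spheroid or 2D. Of these, 3 (DHRS9, RDH10 and DHRS3) were at least 1 higher in spheroid, or 2-fold, and 0 were at least 1 lower. Over all 10570 genes tested, 5.05% were as far higher and 5.23% as far lower. Because the members were chosen with this contrast known, nothing is read from the count. The median of the 9 was -0.06, and that of all genes tested -0.01. By probe set, 7 of 19 were at least 1 higher, against 5.52% of all probe sets, and 0 were at least 1 lower, against 4.93%. These 7 belong to the same 3 genes, so they are no further result. The DHRS9 probe sets at 4.75 and 4.98 in 2D passed the filter through the spheroid array alone. With shGFP as the reference, chosen after seeing the data, only DHRS9 of the 9 was at least 1 higher (5.16) by its leading probe set. Of 10556 genes, 4.77% were as far higher. At least 1 lower were 0 members, where 4.59% of genes were. Weaker probe sets of RDH10 (1.67) and RDH11 (1.92) were also past 1 against shGFP.

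TRIB1 encodes a pseudokinase that brings proteins to the ubiquitin ligase COP1, and its hairpin arrays were set against shGFP in search of genes that depend on it. RDH10 was higher on both labelled arrays, by 0.82 and 0.71, a mean of 0.77 ± 0.08 (SD, n = 2). Its 95% interval in limma was 0.39 to 1.14, with an adjusted p of 0.951 over all genes (unadjusted p = 0.0128 in limma). The other probe sets of RDH10 were higher on both labelled arrays too, by 0.58 and 0.81, 0.95 and 0.86, and, at background, 0.14 and 0.16. DHRS9 was higher by 0.44 and 0.68, a mean of 0.56 ± 0.17 (SD, n = 2), with an interval of -0.19 to 1.31 and an adjusted p of 0.951 in limma. Its other probe sets were higher by 0.09 and 0.63 and by 0.32 and 0.86. With levels of 6.89 and 7.13, both labelled arrays lay far below the 11.60 of the spheroid array.

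**Figure D3:**
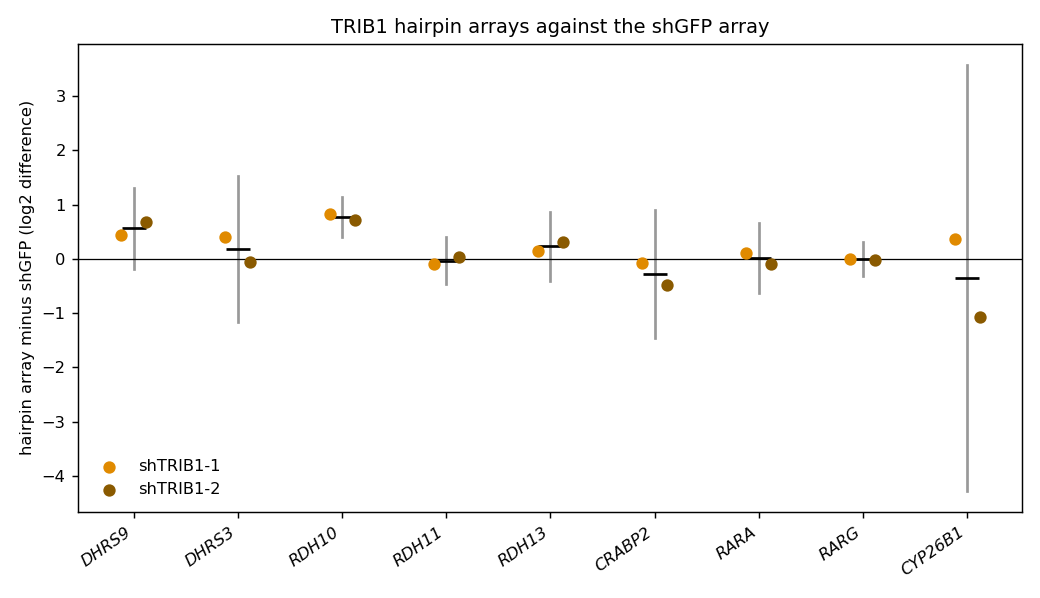
Log2 difference of each TRIB1 hairpin array from the shGFP array (coloured points), their mean (black bar) and limma's 95% interval (grey line) for the 9 members above the level filter. The interval of RDH10 (0.39 to 1.14) is the only one that leaves out 0, before adjustment, and that of CYP26B1 is the widest (-4.27 to 3.57).

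Limma called 0 of 10522 genes at an adjusted p under 0.05 (0%), and gave 356 genes (3.38%) an unadjusted p below 0.05, 1.82% of all genes on the higher side, with RDH10 the only member among them. The fit treats the 2 different hairpins as replicates of 1 group. Its 1 residual degree of freedom comes from these 2 hairpin arrays, and its intervals hold no variation of the shGFP line. A missing call therefore does not show that a gene stayed level. RDH13 was higher by 0.15 and 0.32, and by 0.23 ± 0.12 (SD, n = 2), but its second probe set was lower on both arrays. CRABP2 was lower by 0.07 and 0.48 (mean -0.27 ± 0.29, SD, n = 2). In all, 3 of 9 members were higher on both labelled arrays, 1 was lower on both and 5 had opposite signs, against 25% of genes higher on both and 34.7% lower on both. The share of all genes with opposite signs was not counted, so nothing is read from these 5. None reached a difference of 1 on both, which 0.361% of genes did on the higher side and 0.0855% on the lower side.

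For the remaining members the 2 hairpin arrays gave the following differences from shGFP. RARG differed by 0.00 and -0.01 (interval -0.32 to 0.31) and RDH11 by -0.10 and 0.03 (-0.46 to 0.40). RARA differed by 0.11 and -0.09 (-0.63 to 0.66) and DHRS3 by 0.41 and -0.06 (-1.17 to 1.52). For CYP26B1 the 2 hairpins pointed opposite ways, 0.37 and -1.07, and the interval was -4.27 to 3.57. The array labelled shTRIB1-2 alone gave this member a value past 1 in size.

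The rest of the pathway was read from a list of 59 retinoid genes that are no members, of which 46 had a probe set of their own and 23 passed the level filter in spheroid or 2D. Of these 23, 6 were at least 1 higher in spheroid and 2 at least 1 lower, against 5.05% and 5.23% of all genes tested. Their median was 0.33, against -0.01 for all genes tested. The list was chosen with earlier results of these data known, so nothing is read from its counts or its median. The higher genes SDR16C5 and PLAAT4 passed the filter in this comparison through the spheroid array alone, so their count rests on that array. With shGFP as the reference, 6 of 22 were at least 1 higher and 2 at least 1 lower, against 4.77% and 4.59% of all genes. On the TRIB1 hairpin arrays, 0 of 22 differed by 1 on both, against 0.361% of all genes on the higher side and 0.0855% on the lower side, and limma called 0 of them (smallest unadjusted p 0.0773, for PLAAT4).

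**Figure D4:**
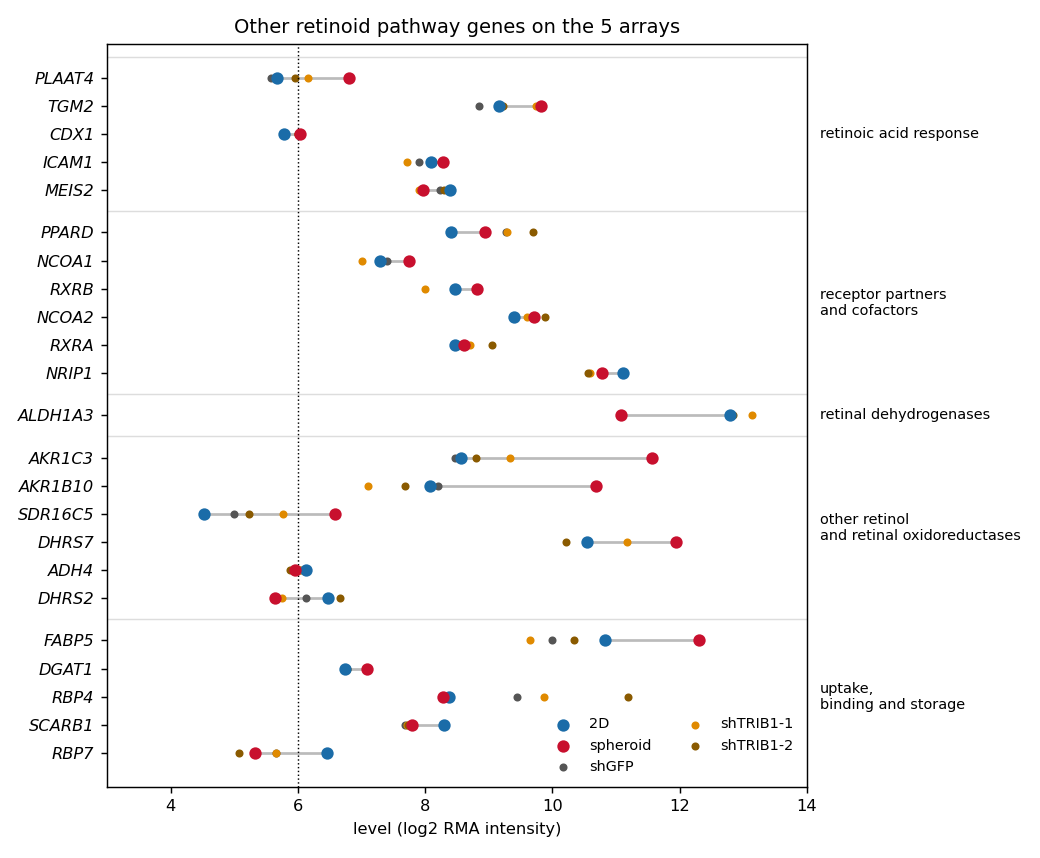
Levels (log2 RMA intensity) of the 23 other retinoid genes that passed the filter in spheroid or 2D, grouped by role. Large points are the 2D (blue) and spheroid (red) arrays joined by a grey line, small points the 3 hairpin arrays, and the dotted line is a level of 6. AKR1C3, AKR1B10, SDR16C5, DHRS7 and FABP5 are at least 1 higher in spheroid, as is PLAAT4, and ALDH1A3 and RBP7 are at least 1 lower.

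Other enzymes that interconvert retinol and retinal held 4 of the 6 higher genes. AKR1C3, an aldo-keto reductase of retinal and of steroids, lay at 8.56 in 2D, 8.46 with shGFP, 9.34 and 8.81 with the TRIB1 hairpins and 11.57 in spheroid, a difference of 3.01 from 2D. AKR1B10, an efficient retinal reductase, lay at 8.08 in 2D, 8.20 with shGFP, 7.11 and 7.69 with the TRIB1 hairpins and 10.68 in spheroid, a difference of 2.60. SDR16C5, a retinol dehydrogenase of epithelia, was at 6.59 in spheroid and between 4.53 and 5.76 on the other 4 arrays, all below the filter, so its difference has no measured size. DHRS7 was at 10.54 in 2D and 11.94 in spheroid (1.40), but its 2 weaker probe sets differed by 0.51 and 0.11. DHRS2 and ADH4 were the remaining 2 of this group above the filter, at -0.84 and -0.18. The second DHRS2 probe set lay at 6.81 in 2D and 3.45 in spheroid (-3.36), below the filter in spheroid, and at 5.02 with shGFP and 4.46 and 5.87 with the TRIB1 hairpins. The probe sets of AKR1B10 and FABP5 and the leading one of DHRS7 carry the suffix _s_at. AKR1C3 and AKR1B10 stood more than 1 above each of the other 4 arrays in spheroid, as FABP5 did. Of all genes at a level of 6 on any array, 1.6% were at least 1 above every other array in spheroid. As with the other counts of the list, nothing is read from these.

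ALDH1A3, which turns retinal into retinoic acid, went the other way and was the only retinal dehydrogenase above the filter. It lay at 12.78 in 2D, 12.81 with shGFP, 13.14 and 12.84 with the TRIB1 hairpins and 11.08 in spheroid, which was 1.70 below 2D and below every other array. Of all genes, 1.72% were at least 1 below every other array in spheroid. The second ALDH1A3 probe set, at 5.81 in 2D and 6.56 in spheroid, pointed upwards by 0.75. ALDH1A1 lay between 2.53 and 3.10 and the leading ALDH1A2 probe set between 4.98 and 5.06 on every array. The second ALDH1A2 probe set, also below the filter, was at 4.27 in 2D and 4.71 in spheroid. ALDH8A1 lay between 2.51 and 3.40 on every array.

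The fatty acid and retinoid carrier FABP5, which is known to take retinoic acid to PPARD instead of the RAR receptors, lay at 10.83 in 2D, 9.99 with shGFP, 9.65 and 10.34 with the TRIB1 hairpins and 12.31 in spheroid. It was 1.48 higher in spheroid than in 2D, while CRABP2 was 0.70 lower, and both differed from shGFP in the upward direction (2.32 and 0.79). RBP7, a cellular retinol-binding protein, was at 6.46 in 2D and 5.33 in spheroid, near background. RBP4, the plasma carrier of retinol, was level between 2D (8.37) and spheroid (8.29) but was at 9.45 with shGFP, 9.87 with shTRIB1-1 and 11.20 with shTRIB1-2. The hairpin arrays of RBP4 were further apart from each other than shGFP and shTRIB1-1 were, and limma's interval ran from -2.54 to 4.71. STRA6, the retinol uptake receptor, stayed between 5.45 and 5.47 on its leading probe set. LRAT, which stores retinol as esters, stayed between 2.77 and 2.96.

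The receptor partners RXRA and RXRB were 0.14 and 0.35 higher in spheroid than in 2D, from levels of 8.47 in both, and the second RXRA probe set was 0.38 lower (6.38 in 2D and 5.997 in spheroid). None of the 6 partners and cofactors above the filter differed by 1. Among 5 genes of the retinoic acid response above the filter, PLAAT4, a retinoid-inducible phospholipase, was at 6.81 in spheroid, and at 5.67 in 2D (a difference of 1.14), which is below the filter. The other 4, among them the transglutaminase TGM2 (0.67), the adhesion molecule ICAM1 (0.18) and the homeobox gene MEIS2 (-0.41), differed by less than 1. TGM2 had 2 further probe sets above the filter that differed by -0.41 and -0.58. The second ICAM1 probe set, above the filter, differed by 0.61, and the last, below the filter in both cultures, by -0.10.

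The genes whose pattern over the 5 arrays lay nearest to that of DHRS9 were sought among 10842 others by the root mean square difference after each gene was centred on its own mean. They were the phospholipase PLA2G4A (0.29), the calprotectin subunit S100A8 (0.45), the cytochrome P450 CYP4X1 (0.46), the carbonic anhydrase CA1 (0.54) and the fibrinogen chain gene FGG (0.55). Since DHRS9 was chosen for its high spheroid level, theirs follows from the likeness and is no further result. Each was below a level of 6 on the other 4 arrays and passed the filter through spheroid alone, so no size of difference is given. No member or listed retinoid gene was among them.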

How the data were processed

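The authors deposited 1 linear intensity per probe set and array. Per the submitters' processing notes it was made with RMA, which corrects background, normalizes by quantiles and summarises probes. That the scale is linear was read from the values. Quantile normalization hides a change that moves most genes one way. Log2 was taken with no pseudocount. Probe sets were named by the platform annotation, and 41043 of 41097 single-symbol probe sets matched RefSeq (GRCh38.p14). For each gene the probe set of highest mean level was used, and the gene entered a comparison at a level of at least 6 (intensity 64) on any compared array.

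The shTRIB1 and shGFP arrays were compared by limma 3.58.1 in R 4.3.3 (lmFit, eBayes with an intensity trend, Benjamini-Hochberg over all genes tested at 0.05). The fit was tried on simulated data with larger mean differences than any member showed and less spread than most members had. That trial checks the calculation, not whether limma could call genes on these arrays. Spheroid, 2D and shGFP were compared as log2 differences without a test, counted at 1. Array number limits the precision. Named genes are the members, 12 key genes of the list, list genes past 1, the 5 nearest patterns to DHRS9 and TRIB1. Members, gene lists and motifs were chosen with earlier results of these data known. Protein sequences were not used here. Alternatives were other filters, probe set rules, scalings, references and fits.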

Additional observations from a re-analysis of the deposited data

How the results depend on the processing

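Each condition but the TRIB1 hairpins has 1 array, and levels near 6 rest on a signal near background. No paired analysis was possible because only the shTRIB1 group has more than 1 array. In spheroid minus 2D, 534 genes were at least 1 higher, and 330 at a level filter of 8. DHRS9 stayed between 5.16 and 6.48, but had no value without _s_at and _x_at probe sets. DHRS3 was 0.90 against the mean of 2D and shGFP, and CRABP2 turned from -0.70 to 0.05. RDH13 was -0.03 without _s_at and _x_at probe sets. Of 65 member values under the alternatives, 57 kept their sign and 8 did not. Part of that count was fixed in advance, since a level filter cannot change the value of a member that passes it. Nor can a probe set rule change a member with 1 probe set. In shGFP minus 2D, 223 genes were at least 1 higher and 221 lower, against 145 higher with the median of probe sets and 127 lower at a filter of 8. All 45 member values kept their sign, but RDH10 went from 1.04 to 0.84 with the median of probe sets. The same limit holds for these 45. The median level of both arrays was 5.04, so centring the arrays could not change them either. On both hairpin arrays, 38 genes were higher and 9 lower. The higher count was 23 at a filter of 8 and with 16 added to the intensity, 20 with the median of probe sets and 82 against the mean of 2D and shGFP, and the lower count was 4 with that median and 29 against that mean. Leaving out 1 hairpin array gave 138 to 209 higher and 85 to 187 lower, since 1 array then has to pass and not both. RDH10 was 1.29 against the mean of 2D and shGFP and 0.71 to 0.82 with 1 hairpin array, and DHRS9 0.36 to 0.77 over its alternatives. Of 72 member values in this comparison, 66 kept their sign and 6 did not. RDH13 changed sign with the median of probe sets (-0.04). RDH11, RARA, RARG, DHRS3 and CYP26B1 changed sign when 1 hairpin array was left out. The limit on level filters and probe set rules holds for these 72 too. Limma called 0 genes under all 9 settings run, and the smallest adjusted p of a member was 0.558 to 0.998 over them.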
